A study of Mus musculus with 13 samples.

Results

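The integrated stress response genes Atf4, Atf5, Ddit3, Trib3, Chac1, Asns, Psat1, Phgdh, Slc7a11 and Ddit4 were followed across mouse embryos of embryonic day 9.5. They were picked by symbol, and all 10 were found among the 23217 genes of the deposited table. The samples were 10 embryos labelled xHomo and 3 labelled xHet, all of the C57BL/6J strain background, with the embryo given as the tissue and no treatment named. The series asks what Tet1, a dioxygenase acting on methylated cytosine, contributes to the removal of parental imprints. The fathers, from what is known of the work, were homozygous (xHomo) or heterozygous (xHet) for a Tet1 mutation, but the labels give only the short names. Whether a sample held 1 embryo or a pool, and the litter, sex and library batch of each, are not in the labels, so p-values measure only the spread between these samples.

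The integrated stress response is a shared output of 4 sensor kinases, Gcn2 (amino acid shortage), Perk (unfolded protein in the endoplasmic reticulum), Pkr (double-stranded RNA) and Hri (heme shortage). Each phosphorylates the initiation factor eIF2, which slows translation in general while it favours the mRNA of the transcription factor Atf4. Atf4 and its partners then switch on genes that make and import amino acids, guard against oxidation and, under lasting stress, promote cell death. Impact, an imprinted gene, encodes an inhibitor that keeps Gcn2 from its activator Gcn1.

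Expression was given as FPKM, fragments scaled by transcript length in kilobases and by the mapped fragments of the library, so levels of different genes can be compared per length but the number of reads behind a value is unknown. Summed FPKM ran from 500126 to 662936 in xHomo embryos, with the highest sums in xHomo embryos 8 and 9 and the lowest in xHomo embryo 3, and from 543948 to 570161 in xHet embryos. Tet1 itself differed by -0.10 on the log2 scale between the groups (SE 0.16, limma adjusted p = 0.863). Of 12 markers of placental, yolk sac and decidual cells that a dissection could carry along, 5 had a mean of at least 1 FPKM. The trophoblast marker Tpbpa was listed at 0 in all 13 embryos. The summed level of all 12 was 24.8 to 85.8 FPKM in xHomo and 44.4 to 56.6 FPKM in xHet embryos. Hand1, which the embryonic heart also expresses, was 10.1 to 14.7 FPKM in xHomo embryos, above every xHet embryo in 10 of 10, against 9.04, 9.21 and 8.83 FPKM in xHet embryos (limma p = 0.00122, adjusted p = 0.372). The trophoblast gene Ascl2 was 1.18, 0.67, 1.89 and 0.86 FPKM in xHomo embryos 7 to 10 and 0.05 to 0.18 FPKM in the other xHomo embryos, against 0.16, 0.17 and 0.41 FPKM in xHet embryos. The part of such cells in the results was not tested. The embryos are bulk samples, so fewer cells of a type and less RNA per cell cannot be told apart.

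Atf4 reaches many of its targets through a site near the start of the gene. It pairs with C/EBP proteins on a composite site whose core can be written TGATGNAA (TTNCATCA on the other strand), with N for any base. In windows from 250 bases before to 50 bases after the start of transcription, taken from RefSeq on the GRCm38.p6 build, this core was found at 4 of the 10 members (Chac1, Asns, Slc7a11 and Trib3) and in 3.97% of 32851 windows of all genes. The motif was chosen after expression values were known, and a match of letters is not proof of a site in use. The stretches are shown 5′ to 3′ on the strand of the gene, with the matching letters in capitals; they lie at chr2:119351019-119351086 (plus strand, Chac1), chr6:7693210-7693262 (minus, Asns), chr3:50443623-50443709 (minus, Slc7a11) and chr2:152344028-152344057 (minus, Trib3).
Chac1: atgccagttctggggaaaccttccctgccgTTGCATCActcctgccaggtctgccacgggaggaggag
Asns: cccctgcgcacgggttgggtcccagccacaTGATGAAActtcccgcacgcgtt
Slc7a11: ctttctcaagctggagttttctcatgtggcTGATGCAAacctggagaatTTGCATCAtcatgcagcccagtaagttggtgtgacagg
Trib3: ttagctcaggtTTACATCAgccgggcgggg
The match began 193 bases before the start in Chac1 and 23 bases before it in Asns. Slc7a11 held a pair of matches on opposite strands, 66 and 47 bases before the start, and in Trib3 the match began 15 bases downstream of it.

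Between the groups, none of the members passed. Levels were compared with limma on log2(FPKM+1) over the 12755 genes with a mean of at least 1 FPKM, two-sided, with Benjamini-Hochberg adjustment at 0.05. Log2 changes are xHomo minus xHet and understate the change of low genes. Among all genes 0.0235% passed higher in xHomo embryos and 0% lower. Of the 10 members 9 entered this fit, 0 passed and 1, Phgdh, had an unadjusted p under 0.05. The log2 change was above 0 for 7 of the 9 and under 0 for 2, and 59.7% of all genes had one above 0. Slc7a11 had a mean of 0.908 FPKM and was examined only in a fit without the filter. Chac1 entered only because of high values in some xHomo embryos, so counts over the 9 are not counts over all members. The median log2 change of the 9 was 0.18, against 0.046 over all genes, and that of all 10 without the filter was 0.15.

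Phgdh, the first enzyme of serine synthesis, came nearest (chromosome 3, 98117094 to 98143892 on mm9). It ranged from 74.0 through a median of 86.8 to 102 FPKM in xHomo embryos, against 79.0, 69.8 and 72.1 FPKM in xHet embryos 1 to 3. The level was above every xHet embryo in 9 of 10 xHomo embryos, and only xHomo embryo 2 lay inside the xHet range. The log2 change was 0.24 (SE 0.09), with p = 0.0220 before and 0.508 after Benjamini-Hochberg adjustment in limma, where 7.63% of all genes had an unadjusted p under 0.05 on the higher side. Over the 286 ways to split the embryos into 10 and 3, an exact permutation test gave p = 0.0140 and an adjusted p of 0.461. Psat1, the next enzyme of the same route (chromosome 19, 15979613 to 15999549), ranged from 65.8 through 81.8 to 111 FPKM in xHomo embryos, against 79.6, 71.6 and 72.8 FPKM in xHet embryos. Its highest values were in xHomo embryos 9, 8 and 5, and 4 of 10 xHomo embryos lay inside the xHet range and 1 under it (log2 change 0.18, SE 0.14, limma adjusted p = 0.697).

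Several members spread widely among xHomo embryos. The SD of log2(FPKM+1) had a median of 0.47 over the 9 members among xHomo embryos, against 0.12 among xHet embryos. Over all genes the same medians were 0.23 among xHomo and 0.098 among xHet embryos. A larger SD among the 10 xHomo than the 3 xHet embryos was found for 9 of 9 members and for 90.3% of all genes, so the direction is common to the table and the size differs by gene. Ddit4 had an SD of 1.51 among xHomo embryos, a size that 1.62% of all genes reached, followed by Chac1 at 1.06 (2.02% of genes), Trib3 at 0.84 (2.40%), Ddit3 at 0.57 (3.71%) and Asns at 0.47 (6.56%). Phgdh, with an SD of 0.13, and Atf4, with 0.20, were the steadiest of those tested.

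**Figure D1:**
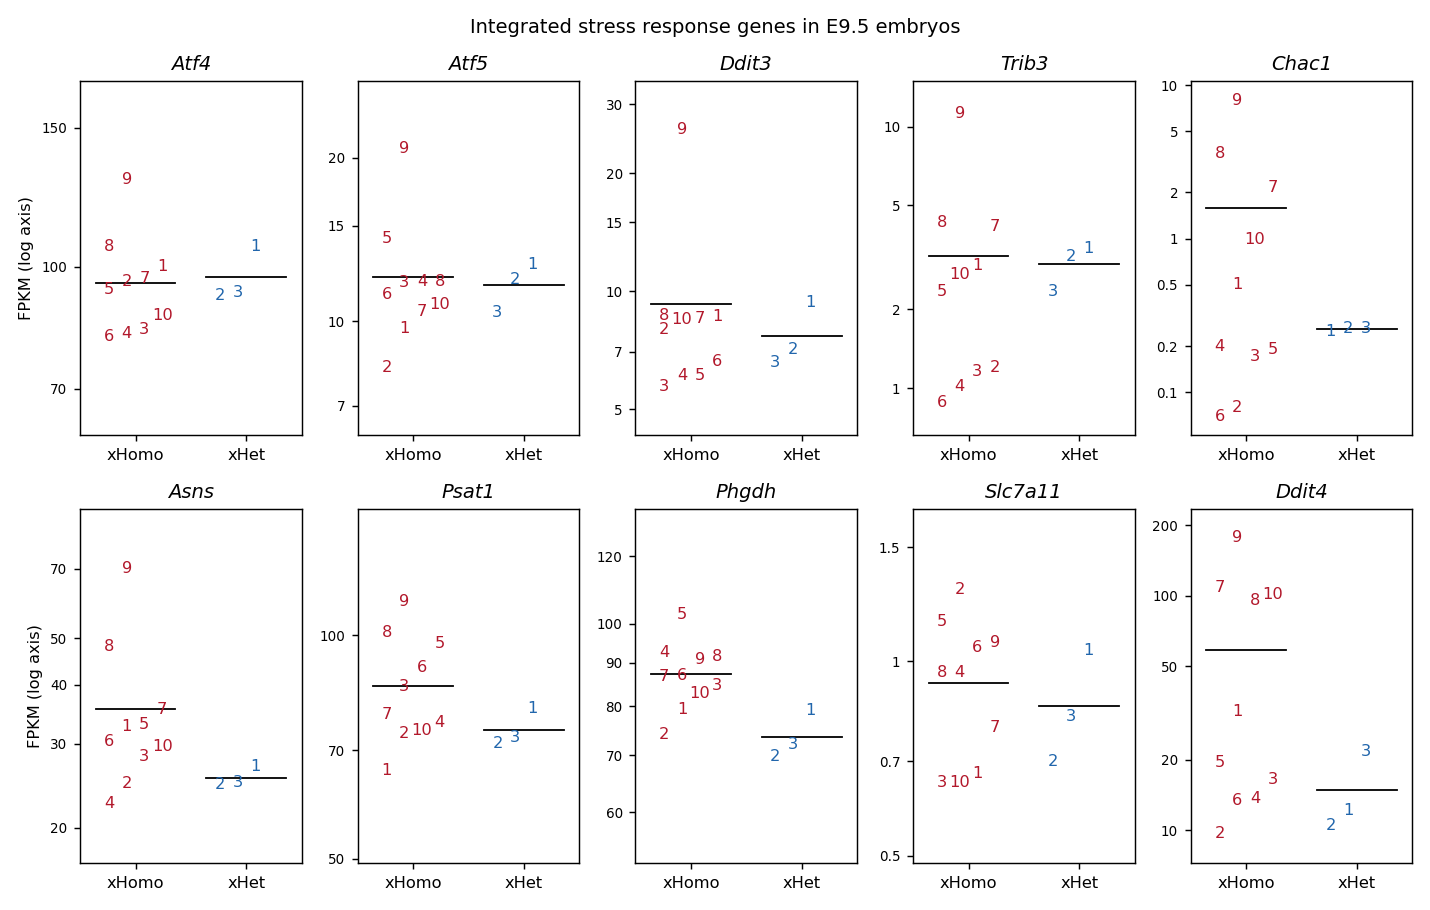
FPKM of each of the 10 genes on a log axis, one panel per gene, with xHomo embryos in red on the left and xHet embryos in blue on the right; each number is an embryo and the bar is the group mean. Embryo 9 tops the xHomo column in 8 of 10 panels, and in the Ddit4 and Chac1 panels embryos 7, 8, 9 and 10 lie above every other embryo.

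Among the transcription factors, Atf4 was abundant and close to even (chromosome 15, 80085614 to 80087971). It ranged from 81.5 through a median of 94.7 to 129 FPKM in xHomo embryos, against 106, 91.9 and 92.7 FPKM in xHet embryos. Only xHomo embryo 9, at 129 FPKM, lay above the xHet range, and embryos 3, 4, 6 and 10 lay under it. The log2 change was -0.03 (SE 0.12, limma adjusted p = 0.946). Atf4 is known to be controlled mainly at translation, which FPKM of mRNA do not measure.

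Atf5, a relative of Atf4 whose mRNA is also favoured when eIF2 is phosphorylated, was at 8.23 to 20.8 FPKM in xHomo embryos (median 11.5), against 12.7, 12.0 and 10.4 FPKM in xHet embryos. It was high in xHomo embryos 9 (20.8 FPKM) and 5 (14.2 FPKM), low in embryos 2 and 1, and inside the xHet range in the other 6 (log2 change 0.01, SE 0.19, limma adjusted p = 0.985). Ddit3, which encodes the death-promoting factor CHOP, was at 25.8 FPKM in xHomo embryo 9. The other 9 xHomo embryos held 5.72 to 8.67 FPKM, against 9.36, 7.12 and 6.59 FPKM in xHet embryos, so none of these 9 lay above the xHet range. Its log2 change was 0.12 (SE 0.31, limma adjusted p = 0.911). In the deposited table the locus of Ddit3 (chromosome 10, 126727849 to 126748842) also held Mars, and that of Atf5 (chromosome 7, 52067626 to 52104449) held 4 other genes, Il4i1, Nup62, Nup62-il4i1 and Tbc1d17. Their values are the less certain for it.

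Trib3 and Chac1 are targets that act back on the response or carry it towards cell death. Trib3, a pseudokinase that restrains Atf4 and Akt (chromosome 2, 152163161 to 152169796), spanned 0.88 to 11.2 FPKM in xHomo embryos (median 2.52), against 3.43, 3.18 and 2.34 FPKM in xHet embryos. It lay on both sides of the xHet range, since xHomo embryos 7, 8 and 9 were above the xHet range at 4.16, 4.28 and 11.2 FPKM, while embryos 2, 3, 4, 5 and 6 were under it at 0.88 to 2.33 FPKM. The group means almost met (log2 change -0.17, SE 0.45, limma adjusted p = 0.913), and the change was -0.37 without xHomo embryo 9 and -0.068 without xHomo embryo 6. Chac1, which breaks down glutathione (chromosome 2, 119176978 to 119180062), reached 2.17, 3.61, 7.98 and 0.99 FPKM in xHomo embryos 7, 8, 9 and 10. The remaining 6 xHomo embryos held 0.07 to 0.50 FPKM (median of all 10 0.35), against 0.25, 0.26 and 0.26 FPKM in xHet embryos 1 to 3. The value in embryo 9 was 31.1 times the xHet mean, a ratio that rests on a level near 0.26 FPKM at unknown depth (log2 change 0.63, SE 0.56, limma adjusted p = 0.737; 0.38 without that embryo). Both genes hold the composite core in the stretches printed earlier. The levels of both in xHomo embryos 2, 3, 4, 5 and 6 lay under those of every xHet embryo.

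Ddit4, also called REDD1, restrains the growth kinase mTORC1 and is known to respond to low oxygen as well as to Atf4 (chromosome 10, 59412423 to 59414518). It reached 109, 95.4, 177 and 101 FPKM in xHomo embryos 7, 8, 9 and 10. The levels of xHomo embryos 1 to 6 were 32.0, 9.66, 16.4, 13.7, 19.5 and 13.4 FPKM, next to 12.2, 10.5 and 21.7 FPKM in xHet embryos 1 to 3. A gap thus lay between 4 xHomo embryos and the remaining 9 samples, in which only xHomo embryo 1 exceeded the xHet range. The highest value was 11.9 times the xHet mean. The log2 change of 1.30 was the largest of the members and did not pass (SE 0.80, limma adjusted p = 0.608; exact permutation p = 0.213). Weighting the samples by their spread in limma, which lowers the influence of variable embryos, was the only alternative run in which members passed, Ddit4 with a log2 change of 1.89 (limma adjusted p = 0.0263) and Phgdh with 0.25 (limma adjusted p = 0.0128), along with 2779 of 12755 genes.

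The Ddit4 window held no TGATGNAA. It held ACGTG, the core of the element that hypoxia-inducible factors bind and that reads CACGT on the opposite strand, 187 bases before the start. This shorter core was found at 4 of 10 members (Ddit4, Asns, Ddit3 and Psat1) and in 19.6% of all windows. The stretch at chr10:59951923-59951987 (minus strand, GRCm38.p6, RefSeq) is shown because Ddit4 varied most among xHomo embryos, with the core in capitals.
Ddit4: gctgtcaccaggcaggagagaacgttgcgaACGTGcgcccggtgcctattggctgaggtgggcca

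Asns, asparagine synthetase, is a standard readout of the Gcn2 and Atf4 route (chromosome 6, 7625171 to 7643182). It ranged from 22.5 through a median of 31.5 to 70.3 FPKM in xHomo embryos, against 26.9, 24.7 and 24.9 FPKM in xHet embryos. Above the xHet range lay 8 of 10 xHomo embryos, with 70.3 FPKM in embryo 9, 48.0 FPKM in embryo 8 and 35.4 FPKM in embryo 7, while embryo 2 was inside it and embryo 4 under it. The log2 change was 0.39 (SE 0.25, limma adjusted p = 0.629). Slc7a11, the cystine importer that feeds glutathione synthesis, was low throughout (chromosome 3, 50168858 to 50247535). It was 0.65 to 1.29 FPKM in xHomo embryos (median 0.96), against 1.04, 0.70 and 0.82 FPKM in xHet embryos. Its highest value was in xHomo embryo 2, and its log2 change without the filter was 0.05 (SE 0.11, limma adjusted p = 0.921). Slc7a11, whose window holds the composite core on both strands, was at 0.79, 0.96 and 1.07 FPKM in xHomo embryos 7 to 9, in which Chac1 and Asns were high.

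A departure was then defined as a difference of at least 1 log2 unit of log2(FPKM+1) from the mean of the xHet embryos, or of the other 2 for a xHet embryo. The 9 tested members gave 12 departures in 90 values from xHomo embryos, 11 higher and 1 lower, and 0 in xHet embryos. In xHomo embryo 9 the departing genes were Ddit3, Trib3, Chac1, Asns and Ddit4, 5 of 9 members against 4.56% of all genes. Chac1 and Ddit4 departed in xHomo embryo 7 (2.12% of all genes) and in xHomo embryo 8 (2.3%). Ddit4 alone departed in xHomo embryos 1 (1.76%) and 10 (1.85%), and in xHomo embryo 6 (1.45%) Trib3 departed on the lower side. No member departed in xHomo embryos 2 (1.48%), 4 (1.53%) and 5 (1.68%), nor in xHet embryos 1 to 3 (1.14%, 1.11% and 1.09%). The share of departing genes was largest in xHomo embryo 3, at 10.2%, with no member among them.

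**Figure D2:**
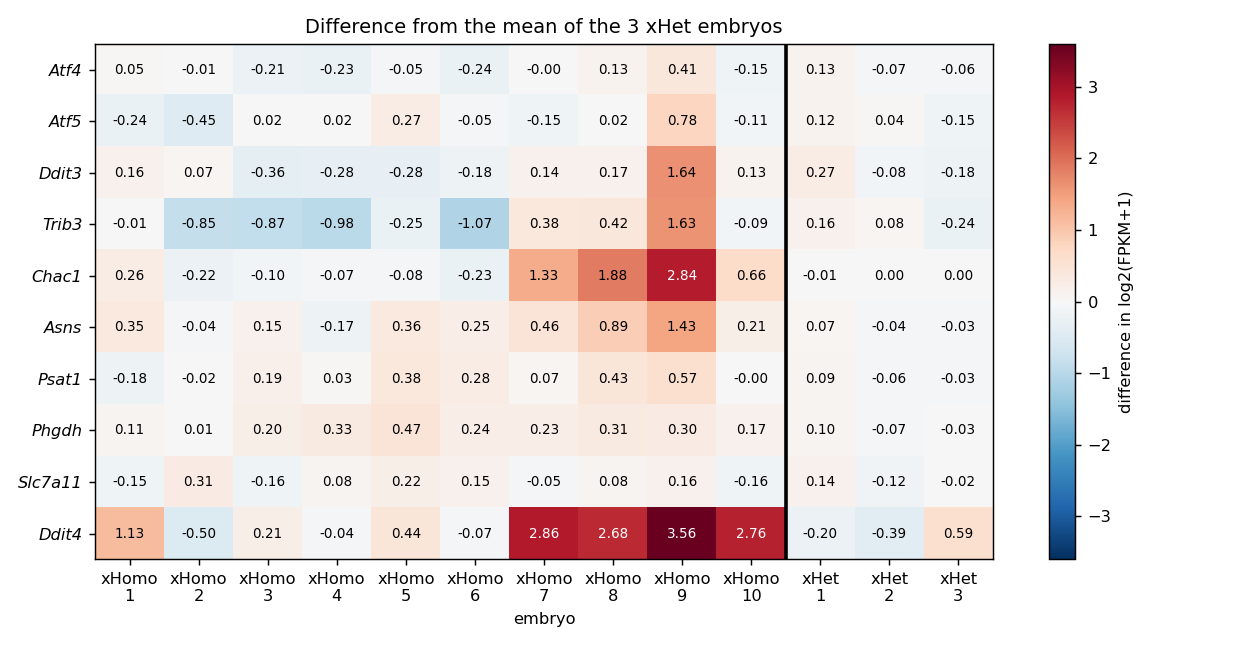
Difference of each gene from the mean of the 3 xHet embryos in log2(FPKM+1), with genes in rows and embryos in columns, xHomo on the left of the black line and xHet on the right; red is higher and blue lower. The column of xHomo embryo 9 is positive for all 10 genes, from 0.16 for Slc7a11 to 3.56 for Ddit4, and the Ddit4 row is at 2.68 to 3.56 in embryos 7 to 10.

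Of the 10 members 8 had their highest value of all embryos in xHomo embryo 9, the exceptions being Phgdh (highest in embryo 5) and Slc7a11 (highest in embryo 2). Over all genes 22.9% were highest there. For Ddit4 and Chac1, xHomo embryos 7, 8, 9 and 10 all lay above every other embryo, a pattern shared by 6.35% of all genes and, among the placental markers, by Ascl2. Both patterns were picked out after the values were seen.

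Whether members varied together was examined across the 10 xHomo embryos with Pearson's r of log2(FPKM+1) and 100000 permutations, adjusted over the pairs tested. The 9 tested members make 36 pairs, of which 8 contain Ddit3. Since Ddit3 stood apart in embryo 9 by 0.737 of its range, above a bound of 0.5, no pooled r was taken for those. Of the remaining 28 pairs 11 passed by r and 10 by Spearman's rho, and 15 had an unadjusted permutation p under 0.05 by r. These libraries covary broadly, so an r that passed is given with the share of 80943726 pairs of tested genes that reached it. The largest gap of Ddit4 came to 0.382 of its range, under the bound, although xHomo embryos 7 to 10 lay apart from the others. Without xHomo embryo 1 the gap exceeded the bound and no pair with Ddit4 could be tested, and the same held for the pairs with Asns without xHomo embryo 8.

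Trib3, Chac1, Asns and Ddit4 gave r that passed in all 6 of their pairs. Chac1 entered the test only through its high values in some xHomo embryos, so r in any pair with Chac1 depends in part on that filter. Trib3 and Chac1 gave r = 0.942 (permutation adjusted p = 0.00112) and rho = 0.903 (permutation adjusted p = 0.00765), an r that 0.444% of all gene pairs reached. Chac1 and Ddit4 gave r = 0.905 (permutation adjusted p = 0.00112) and rho = 0.915 (permutation adjusted p = 0.00588), reached by 1.44% of pairs. With the 2 embryos farthest from the median of the first gene left out, r was 0.862 and 0.940 for these pairs. Trib3 with Asns gave r = 0.918 (permutation adjusted p = 0.00147, reached by 1.03% of pairs) and Trib3 with Ddit4 r = 0.895 (permutation adjusted p = 0.00147, reached by 1.78%), with rho of 0.818 and 0.867 (permutation adjusted p = 0.0229 and 0.0129) and r of 0.882 and 0.885 without 2 embryos. Chac1 with Asns gave r = 0.916 (permutation adjusted p = 0.00347, reached by 1.08%), but rho = 0.697 did not pass (permutation adjusted p = 0.0715) and r was 0.563 without 2 embryos. Asns with Ddit4 gave r = 0.777 (permutation adjusted p = 0.00656, reached by 8.15% of pairs), rho = 0.758 (permutation adjusted p = 0.0484) and r = 0.603 without 2 embryos.

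Atf4 mRNA varied along with some of its targets, over a narrow range. It gave r = 0.909 with Trib3 (permutation adjusted p = 0.00523), 0.880 with Asns (permutation adjusted p = 0.00656) and 0.847 with Chac1 (permutation adjusted p = 0.0101), reached by 1.29%, 2.39% and 4.0% of all gene pairs. The rho of these pairs were 0.939, 0.745 and 0.758 (permutation adjusted p = 0.00588, 0.0484 and 0.0484), and r was 0.728, 0.764 and 0.599 without 2 embryos. None of the 3 passed after TPM rescaling, which gives every embryo the same summed level, and those with Trib3 and Chac1 did not pass after median-of-ratios scaling. None passed without xHomo embryo 9, in which Atf4 was highest, and none could be tested without xHomo embryo 8, since the gap bound was then exceeded. With Ddit4, Atf4 gave r = 0.666, which did not pass. Without xHomo embryo 9 the pairs Trib3 with Chac1, Asns or Ddit4 and Chac1 with Asns or Ddit4 still passed by r, at r = 0.870, 0.801, 0.891, 0.807 and 0.898, while Asns with Ddit4 did not. By rho, Trib3 with Chac1 and Chac1 with Ddit4 passed there (permutation adjusted p = 0.0384 and 0.0367). Trib3 with Asns, Trib3 with Ddit4 and Chac1 with Asns did not (permutation adjusted p = 0.0937, 0.0569 and 0.242). With 2 further embryos left out, r of the pairs that passed by r was 0.871, 0.839, 0.874, 0.296 and 0.979, in the order given.

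The serine enzymes and Atf5 were high in xHomo embryo 5, and Atf5 and Psat1 were highest in xHomo embryo 9. Atf5 with Psat1 gave r = 0.811 (permutation adjusted p = 0.00656) and rho = 0.867 (permutation adjusted p = 0.0129), a value that 6.01% of all gene pairs reached and that did not pass without xHomo embryo 9 (r without 2 embryos 0.759). Psat1 with Phgdh gave r = 0.673 (permutation adjusted p = 0.0647), and Atf5 with Phgdh r = 0.678 (permutation adjusted p = 0.0687) and rho = 0.855 (permutation adjusted p = 0.0129). Without xHomo embryo 9 the last pair passed at r = 0.947 (permutation adjusted p = 0.00852). Atf5 gave r of 0.738 with Asns, 0.638 with Trib3, 0.621 with Chac1 and 0.461 with Ddit4, and none of these passed. Phgdh gave r of 0.079 with Atf4, 0.223 with Trib3, 0.220 with Chac1, 0.318 with Asns and 0.166 with Ddit4, and none of these passed. Asns with Psat1 passed at r = 0.725 (permutation adjusted p = 0.0357, reached by 11.8% of pairs), but its rho of 0.648 did not (permutation adjusted p = 0.0991) and r was 0.191 when xHomo embryos 8 and 9 were left out, so it rests on those samples.

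**Figure D3:**
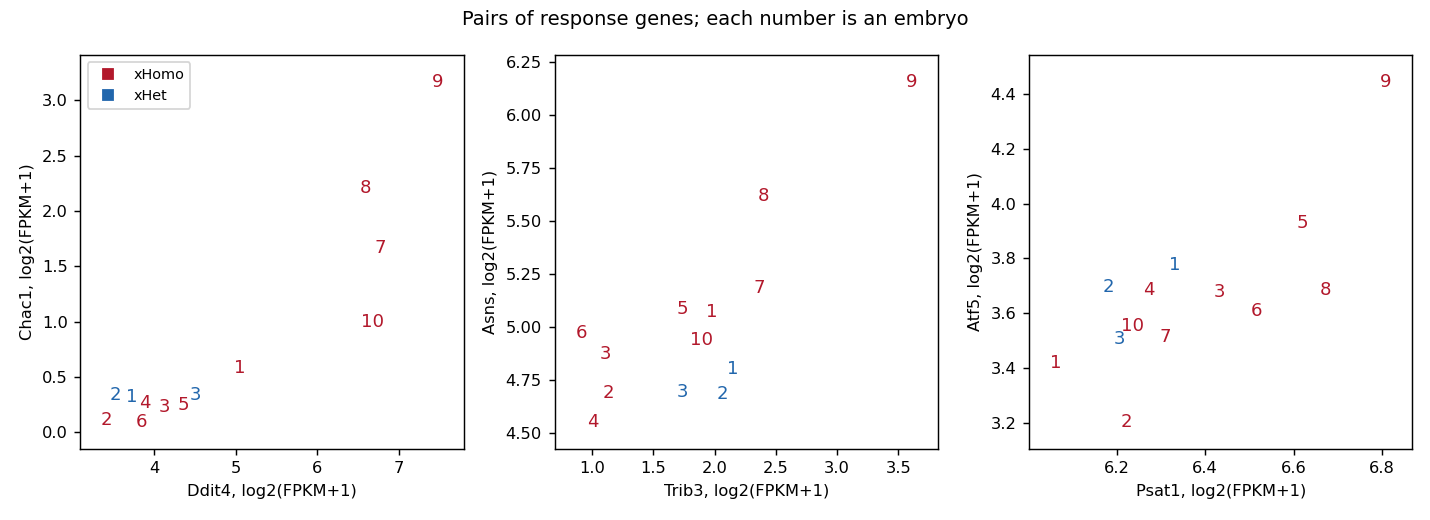
Chac1 against Ddit4, Asns against Trib3 and Atf5 against Psat1, in log2(FPKM+1) on both axes; each number is an embryo, red for xHomo and blue for xHet. In the left panel xHomo embryos 7, 8, 9 and 10 lie apart at the upper right (r = 0.905 over xHomo embryos), and in the middle panel embryos 8 and 9 lead (r = 0.918). In the right panel (r = 0.811) xHomo embryos 9, 8 and 5 are highest in Psat1. In Atf5 embryos 9 and 5 lead, while embryo 8, at 11.9 FPKM, lies inside the xHet range.

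Impact was then set beside the members. It was 4.94, 6.48 and 5.63 FPKM in xHomo embryos 3, 5 and 10 and 14.2 to 19.4 FPKM in the other 7, against 21.3, 20.8 and 18.3 FPKM in xHet embryos 1 to 3 (chromosome 18, 13130761 to 13151457; log2 change -0.71, SE 0.36, limma adjusted p = 0.557). The low values stand apart by 0.575 of the range, so no correlation was taken and the embryos are described one by one. In xHomo embryo 3 Asns was 28.2 FPKM, Trib3 1.16 FPKM, Chac1 0.17 FPKM and Ddit4 16.4 FPKM, and of these only Asns lay above the xHet range. In xHomo embryo 5 Asns was 33.0 FPKM, Trib3 2.33 FPKM, Chac1 0.19 FPKM and Ddit4 19.5 FPKM. This embryo had the highest Phgdh of all, 102 FPKM, with Atf5 at 14.2 FPKM and Psat1 at 97.4 FPKM. In xHomo embryo 10 Ddit4 was 101 FPKM and Chac1 0.99 FPKM, yet Asns was 29.6 FPKM and Trib3 2.71 FPKM, with Trib3 inside the xHet range. The embryos with the highest Trib3, Chac1 and Asns, xHomo 7, 8 and 9, held 16.0, 16.4 and 16.8 FPKM of Impact. Asns and Phgdh lay above every xHet embryo in each of xHomo embryos 3, 5 and 10. Over all 10 xHomo embryos Asns did so in 8 and Phgdh in 9. Psat1 lay above every xHet embryo in xHomo embryos 3 and 5, Atf5 and Slc7a11 in xHomo embryo 5, and Ddit4 and Chac1 in xHomo embryo 10. Trib3, Chac1 and Ddit3 lay under every xHet embryo in xHomo embryos 3 and 5, as did Atf4 and Slc7a11 in xHomo embryos 3 and 10.

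**Figure D4:**
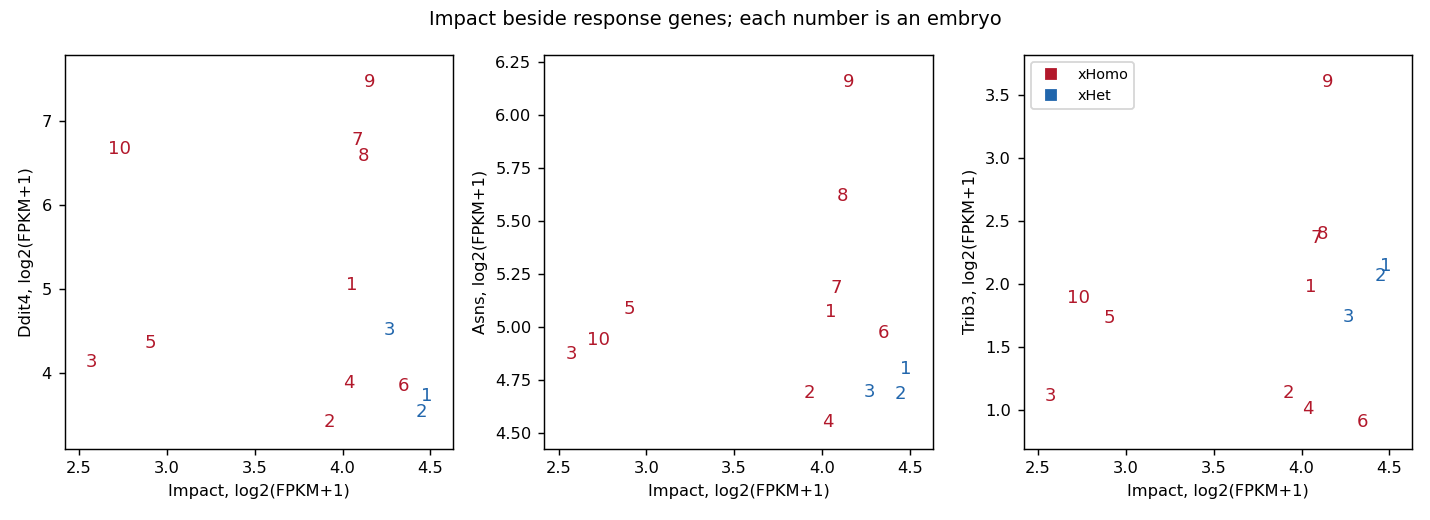
Ddit4, Asns and Trib3 against Impact, in log2(FPKM+1) on both axes; each number is an embryo, red for xHomo and blue for xHet. xHomo embryos 3, 5 and 10 lie at the left with Impact at 4.94 to 6.48 FPKM, with Ddit4 at 101 FPKM in embryo 10 and Asns at 28.2 to 33.0 FPKM in all 3, above the highest xHet embryo at 26.9 FPKM.

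Among the genes upstream none passed. Of 14 genes for sensors and their regulators 8 had a log2 change above 0 (59.7% of all genes) and 6 under 0, with 0 passing in limma. The median was 0.034, and -0.041, -0.011 and -0.023 after TPM rescaling, median-of-ratios scaling and quantile normalization. An unadjusted p under 0.05 was found in limma for 1 gene. That gene was Eif2ak2, which encodes Pkr, at 2.70 ± 0.506 FPKM in xHomo embryos (SD, n = 10) and 3.66 ± 0.174 FPKM in xHet embryos (SD, n = 3), with a limma adjusted p of 0.494. Eif2ak4, which encodes Gcn2, was 4.65 to 10.4 FPKM in xHomo embryos, highest in embryo 9 and lowest in embryo 3, against 7.84, 6.96 and 6.17 FPKM in xHet embryos (limma adjusted p = 0.890). Its activator Gcn1l1 was 20.6 ± 4.60 FPKM in xHomo and 20.2 ± 0.737 FPKM in xHet embryos. Eif2ak3 (Perk) averaged 5.41 ± 1.48 FPKM in xHomo and 6.17 ± 0.340 FPKM in xHet embryos, and Eif2ak1 (Hri) 17.4 ± 2.69 FPKM in xHomo and 16.6 ± 1.38 FPKM in xHet embryos. Eif2b5, a subunit of the exchange factor that phosphorylated eIF2 blocks, averaged 35.3 ± 2.21 FPKM in xHomo and 32.1 ± 2.55 FPKM in xHet embryos. The phosphatase subunit Ppp1r15a, which ends the response and is itself induced by it, averaged 7.56 ± 2.03 FPKM in xHomo and 8.90 ± 0.20 FPKM in xHet embryos, with 11.3 FPKM in xHomo embryo 9, and its constitutive relative Ppp1r15b 24.9 ± 5.30 FPKM in xHomo and 28.0 ± 1.90 FPKM in xHet embryos.

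Of 6 other transcription factors of the response 4 were tested and 0 passed, with 3 log2 changes above 0 (59.7% of all genes) and 1 under 0. Atf3, an early partner of CHOP, was 1.56 to 5.53 FPKM in xHomo embryos, highest in embryo 9, against 2.09, 2.55 and 2.89 FPKM in xHet embryos. Cebpg, the C/EBP protein that pairs with Atf4, averaged 10.7 ± 1.04 FPKM in xHomo and 9.49 ± 0.715 FPKM in xHet embryos (limma adjusted p = 0.590). Cebpb averaged 1.96 ± 0.572 FPKM in xHomo and 1.70 ± 0.727 FPKM in xHet embryos, and Atf2 17.8 ± 2.25 FPKM in xHomo and 18.1 ± 0.647 FPKM in xHet embryos.

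The wider set of amino acid and one-carbon synthesis targets had higher means in xHomo embryos, as Asns had. All 11 had a log2 change above 0 in limma (median 0.26), 0 passed, and 10 of 11 were highest in xHomo embryo 9 (22.9% of all genes). The 11 stayed above 0 under the 3 other scalings. Over all genes 59.7% had a log2 change above 0. Mthfd1l, a mitochondrial folate enzyme, averaged 21.0 ± 4.55 FPKM in xHomo and 16.1 ± 1.20 FPKM in xHet embryos (limma adjusted p = 0.575). Cth, which makes cysteine, averaged 11.1 ± 2.64 FPKM in xHomo and 8.74 ± 0.756 FPKM in xHet embryos (limma adjusted p = 0.584), with 17.1 FPKM in xHomo embryo 9. Aldh18a1 of proline synthesis averaged 27.7 ± 5.41 FPKM in xHomo and 22.6 ± 1.25 FPKM in xHet embryos, and Got1, an aspartate transaminase, 19.3 ± 1.81 FPKM in xHomo and 17.2 ± 2.10 FPKM in xHet embryos. By embryo, the list median of the difference from the xHet mean was 0.28, 0.59, 1.0 and 0.18 log2 units in xHomo embryos 7 to 10 and -0.19 to 0.34 in the other 6.

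Amino acid transporters and aminoacyl-tRNA synthetases, the other supply branch of the response, also gave no gene that passed. Of 8 transporters 2 had a log2 change above 0 (59.7% of all genes) and 6 under 0, with a median of -0.09 and 0 passing in limma. In xHomo embryo 3, where the summed FPKM was smallest, 8 of 8 were lowest, against 51.3% of all genes. In xHomo embryo 9, by contrast, 6 of 8 were highest (22.9% of all genes). The list median of the difference from the xHet mean was 0.65 log2 units in that embryo. Slc1a5, a glutamine importer, stood at 14.7 FPKM in xHomo embryo 3 and 32.3 to 40.6 FPKM in the other xHomo embryos, against 47.6, 41.7 and 43.2 FPKM in xHet embryos (limma adjusted p = 0.611). Slc38a2, a neutral amino acid importer, averaged 101 ± 27.9 FPKM in xHomo and 121 ± 9.74 FPKM in xHet embryos. Slc7a1, an arginine importer, averaged 7.39 ± 2.58 FPKM in xHomo and 7.76 ± 1.35 FPKM in xHet embryos, and Slc3a2, the heavy chain that Slc7a11 needs, 70.2 ± 20.8 FPKM in xHomo and 72.5 ± 4.91 FPKM in xHet embryos, with 118 FPKM in xHomo embryo 9. Of 13 synthetase genes, counting the tRNA exporter Xpot, 13 had a log2 change above 0 (59.7% of all genes). Their median was 0.12, 0 passed in limma, and 8 of 13 were highest in xHomo embryo 9 (22.9% of all genes). After TPM rescaling, median-of-ratios scaling and quantile normalization 10, 11 and 10 were above 0. Sars, the seryl synthetase, averaged 39.4 ± 8.06 FPKM in xHomo and 30.5 ± 3.16 FPKM in xHet embryos (limma adjusted p = 0.521), with 58.6 FPKM in embryo 9. Nars, Tars and Gars, for asparagine, threonine and glycine, had log2 changes of 0.16, 0.16 and 0.15 (limma adjusted p = 0.594, 0.645 and 0.678).

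Of 9 other targets of the response 7 were tested, and 6 of them were higher in xHomo embryos 7, 8, 9 and 10 than in any other embryo, as Ddit4 and Chac1 were (6.35% of all genes). All 7 had a log2 change above 0 (59.7% of all genes), with a median of 0.46, and 0 passed in limma. Sesn2, which like Ddit4 restrains mTORC1, was 5.80, 9.65, 13.9 and 5.32 FPKM in those 4 embryos and 2.36 to 4.10 FPKM in the other xHomo embryos, against 2.81, 2.99 and 2.65 FPKM in xHet embryos (limma adjusted p = 0.581). Stc2, a secreted protein, was 14.0, 14.4, 30.9 and 12.4 FPKM in the same 4 and 1.23 to 5.36 FPKM in the other xHomo embryos, against 2.98, 3.44 and 4.81 FPKM in xHet embryos (limma adjusted p = 0.777). Eif4ebp1, the translation repressor 4E-BP1, was 78.7, 88.2, 123 and 65.4 FPKM in the 4 embryos and 40.2 to 50.1 FPKM in the other xHomo embryos, against 42.1, 38.0 and 43.4 FPKM in xHet embryos (limma adjusted p = 0.590). Jhdm1d, a histone demethylase, averaged 6.77 ± 2.57 FPKM in xHomo and 4.77 ± 0.716 FPKM in xHet embryos, with 12.6 FPKM in embryo 9.

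Other programmes that control some of these genes were set beside them. Genes that respond to low oxygen were high in the same xHomo embryos as Ddit4 and Chac1. Of 10 listed 10 had a log2 change above 0 (59.7% of all genes), with a median of 0.62, and 0 passed in limma. All 10 were higher in xHomo embryos 7, 8, 9 and 10 than in any other embryo (6.35% of all genes). Their median difference from the xHet mean was 1.60, 1.60, 2.14 and 1.29 log2 units in those 4 embryos, 0.61 in xHomo embryo 1 and -0.25 to -0.08 in the rest of the group, against -0.19, -0.15 and 0.33 in xHet embryos. Ndrg1 was 12.4, 12.9, 23.4 and 6.60 FPKM in xHomo embryos 7 to 10 and 1.46 to 5.76 FPKM in the other xHomo embryos, against 1.8, 1.55 and 3.16 FPKM in xHet embryos (limma adjusted p = 0.635). Egln3, an oxygen-sensing hydroxylase, averaged 6.98 ± 5.71 FPKM in xHomo and 2.74 ± 0.638 FPKM in xHet embryos, its relative Egln1 33.3 ± 19.3 FPKM in xHomo and 18.6 ± 2.78 FPKM in xHet embryos, and Higd1a 35.7 ± 16.0 FPKM in xHomo and 21.5 ± 2.07 FPKM in xHet embryos. The part of oxygen in the levels of the members and of the other targets of the response was not tested.

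Endoplasmic reticulum chaperones, which the Atf6 and Xbp1 branches of the unfolded protein response induce, mostly had lower means in xHomo embryos. Of 13 listed 2 had a log2 change above and 11 under 0 (median -0.24), 0 passed in limma, and 0 were highest in xHomo embryo 9. Over all genes 59.7% had a log2 change above 0 and 22.9% were highest in xHomo embryo 9. Hspa5, which encodes BiP, stood at 436 FPKM in xHomo embryo 9, at 327 FPKM in embryo 3 and at 625 to 938 FPKM in the other xHomo embryos, against 856, 817 and 812 FPKM in xHet embryos (limma adjusted p = 0.737). Hyou1 averaged 81.0 ± 25.4 FPKM in xHomo and 113 ± 8.35 FPKM in xHet embryos (limma adjusted p = 0.575), and Pdia6 and Calr had log2 changes of -0.33 and -0.28. The summed level of the 13 came to 1429 FPKM in xHomo embryo 3, 2151 FPKM in embryo 9 and 2912 to 3898 FPKM in the other xHomo embryos, against 3506 to 3722 FPKM in xHet embryos. In xHomo embryo 9, where Ddit3, Trib3 and Asns were highest, the list median of these chaperones was -0.65 log2 units from the xHet mean. Not every gene of the list was low there. Dnajb9 was 10.7 FPKM in that embryo, against 8.56, 10.6 and 10.8 FPKM in xHet embryos. A relation between the chaperones and the members was not tested.

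**Figure D5:**
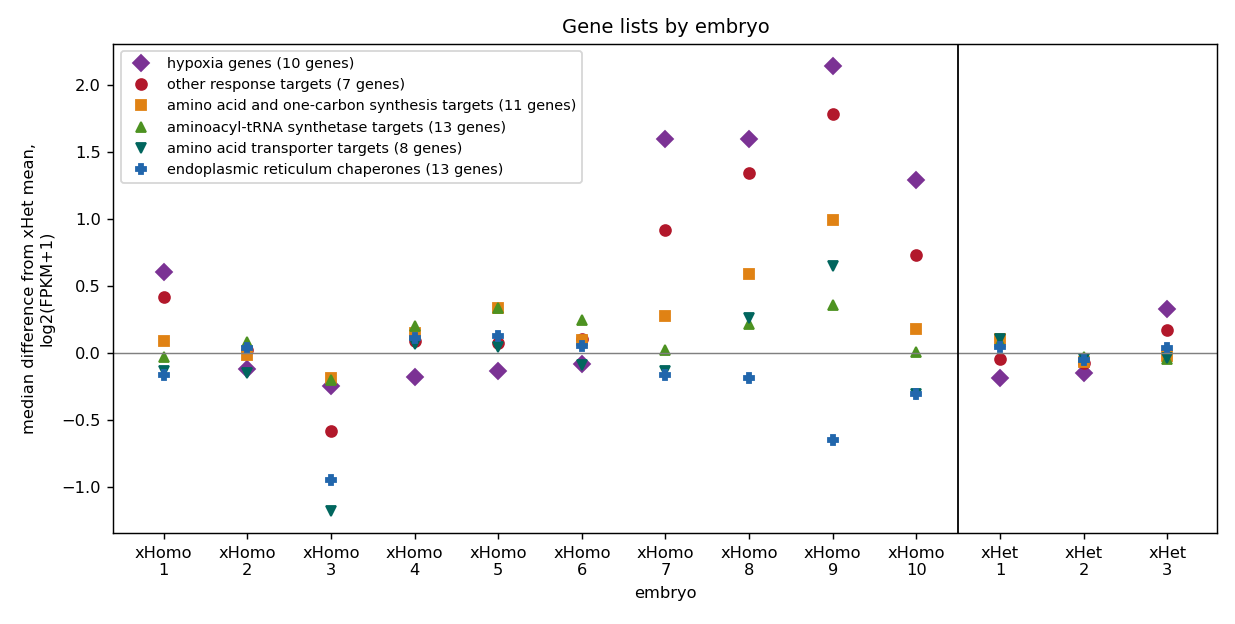
Median difference from the mean of the 3 xHet embryos, in log2(FPKM+1), of 6 gene lists in each embryo, xHomo on the left of the line and xHet on the right; each symbol is a list. In xHomo embryos 7 to 10 hypoxia genes are at 1.29 to 2.14 and the other response targets at 0.73 to 1.79, while endoplasmic reticulum chaperones are at -0.65 to -0.16.

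Of 8 targets of p53, which is also known to act on Ddit4 and Trib3, 7 had a log2 change above and 1 under 0. Their median was 0.24, and 5 to 6 were above 0 under the other scalings. On the higher side 4 had an unadjusted p under 0.05, with 0 passing in limma. Over all genes 59.7% had a log2 change above 0 and 7.63% an unadjusted p under 0.05 on the higher side. Cdkn1a, the cell cycle inhibitor p21, was 3.83 to 8.39 FPKM in xHomo embryos, highest in embryo 9, against 3.48, 3.20 and 2.56 FPKM in xHet embryos (log2 change 0.54, limma adjusted p = 0.481). Phlda3, Ccng1 and Bbc3 had log2 changes of 0.37, 0.33 and 0.40 (limma adjusted p = 0.491, 0.513 and 0.521). Of 6 targets of Nrf2, which also controls Slc7a11, 3 had a log2 change above and 3 under 0, with 0 passing in limma. Hmox1, heme oxygenase, was 13.2, 11.1, 17.4 and 11.6 FPKM in xHomo embryos 7 to 10 and 6.28 to 8.12 FPKM in the other xHomo embryos, against 7.51, 6.14 and 7.11 FPKM in xHet embryos. Gclc, Gclm and Srxn1 had log2 changes of -0.17, 0.15 and 0.08.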

How the data were processed

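The authors deposited a single table that lists FPKM by gene and embryo, rounded to 2 decimals. Per the submitters' processing notes, TopHat, Cufflinks and bcl2fastq 1.8.2 took part, on the mm9 build. The versions of TopHat and Cufflinks, the gene annotation, any filter and the strand setting were not given in the sources used here. Locus starts in the table count from 0, so 1 was added. FPKM hold no counts, so the depth behind each value is unknown, and a very abundant RNA lowers the FPKM of the rest.

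Genes that averaged 1 FPKM or more over the 13 embryos were tested on log2(FPKM+1) in limma 3.58.1 (R 4.3.3), with lmFit and a trended eBayes and no covariates. Python 3.11.15 with numpy 2.4.6, scipy 1.17.1 and pandas 2.3.3 gave correlations, departures and motif counts, and matplotlib 3.10.9 the figures. The steps were checked on simulated data. The members, the 11 lists and the tests were chosen with earlier results of these data known. Genes named are mainly the members, Impact, the sensor kinases, Gcn1l1, Ppp1r15a, Ppp1r15b and up to 4 genes of each list with the smallest unadjusted p. Alternatives were other pseudocounts, filters, scalings, sample weights, an Xist covariate, an exact permutation test, a replicate block and leaving out each embryo. Promoter windows came from RefSeq and were matched by symbol for 10 of 10 members.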

Additional observations from a re-analysis of the deposited data

Results flagged for a closer look

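Ddit3 stood at 25.8 FPKM in xHomo embryo 9, apart from the other 9 embryos of its group by 0.737 of the range on the log2 scale, above Dixon's critical value of 0.466 for 10 samples. Of 11 genes examined (the 10 members and Impact) it was the only one so far from its group, and chance alone marks about 1 group in 20. Without xHomo embryo 9 the log2 change of Ddit3 was -0.048.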

How the results depend on the processing

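With array weights 2 members and 22 related pathway genes passed in limma, against 0 of either otherwise; in the other settings run, with the exact permutation test (smallest adjusted p over all genes 0.388) and on leaving out any 1 embryo, 0 members passed. The median log2 change of the members was 0.13 to 0.25 when 1 embryo was left out and -0.022 with a replicate block. Departures numbered 20 at a threshold of 0.5 log2 units. Passing pairs numbered 7 with a pseudocount of 5 (21 tested), 7 after TPM rescaling, and 4 to 13 when 1 xHomo embryo was left out, lowest without embryo 8 (15 tested), with 6 without embryo 9. The sign of Atf5 turned after TPM rescaling (-0.061), with array weights (-0.036), with the Xist covariate (-0.0051), after median-of-ratios scaling (-0.032) and after quantile normalization (-0.017), and that of Ddit3 with the Xist covariate (-0.13). Leaving out 1 embryo gave -0.081 to 0.035 for Atf4, -0.074 to 0.070 for Atf5, -0.048 to 0.25 for Ddit3, -0.37 to -0.068 for Trib3 and 0.38 to 0.72 for Chac1; the causes were not tested. The labels do not say whether embryo numbers pair the samples. Same-numbered embryos gave correlations of their deviations of -0.065, -0.040 and -0.038. Different-numbered ones gave -0.060 to 0.105, and such values cannot exclude a shared litter or batch. Embryo numbers 4 to 10 occur only among xHomo embryos. With the number as a replicate block, each of those embryos is fitted by its own term. The change then compares only xHomo embryos 1 to 3 with xHet embryos 1 to 3. In that setting 0 members passed, the median of all genes was -0.087, and the changes of Atf5, Ddit3, Chac1 and Psat1 were -0.23, -0.045, -0.022 and -0.00095. Without xHomo embryos 3 and 9 together, an alternative chosen after seeing the data, 0 members passed. All 10 members without the filter, also added later, gave 12 departures. Depth limits most the values of Chac1 and Slc7a11, at or under 1 FPKM in most embryos.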
